A study of Mus musculus with 11 samples.

Results

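The contractile machinery of striated muscle was followed as a set of 38 genes in primary mouse myoblasts with and without the circadian factor Bmal1. The set held genes of the sarcomere, the repeating contractile unit, and of excitation-contraction coupling, which turns depolarization of the cell membrane into calcium release. Genes were chosen by name and by a minimum level, a normalized read count of at least 10 in at least 2 libraries. The names were picked with earlier results of these data known. All 38 were in the deposited table of 22104 genes. The same minimum defined the 14729 genes tested, so by the rule all 38 were among them. All 38 reached the minimum in each of the 11 libraries. Total RNA was sequenced from myoblasts of skeletal muscle of C57BL/6 mice about 8 weeks old, after 6 h in normoxia, 21% oxygen, or in hypoxia, 1% oxygen. The libraries were 2 of wild-type cells in normoxia, 3 of wild-type cells in hypoxia, 3 of Bmal1-/- (knockout) cells in normoxia and 3 of Bmal1-/- cells in hypoxia. The cells of all groups grew in the same medium, with fetal bovine serum and basic fibroblast growth factor, and the labels name no differentiation medium. The deleted part of Bmal1 is not given in the labels, nor do they say whether the libraries of a group came from separate mice or cultures. P-values therefore rest on the spread between libraries of a group, whose source, technical or biological, is not known. A library is named below by genotype, oxygen and replicate, so that WT-N1 is wild-type normoxia replicate 1 and KO-H3 knockout hypoxia replicate 3.

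In a sarcomere, thick filaments of myosin heavy and light chains slide along thin filaments of actin. Tropomyosin and the troponin complex on the thin filament open or block the myosin sites according to calcium. Titin and nebulin span the filaments, the Z-disc anchors the thin filaments and the M-band links the thick ones. Calcium comes from the sarcoplasmic reticulum through the ryanodine receptor, which is gated by the voltage sensor of the membrane, and is pumped back by SERCA. Myoblasts are precursor cells that switch these genes on when they leave the cell cycle and fuse, under the E-box binding factors MyoD and myogenin with MEF2. Embryonic, slow and cardiac isoforms are known to come before the adult fast ones. BMAL1 with its partner CLOCK also binds an E-box.

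A normalized count is the reads of a gene divided by the size factor of its library. Reads in genes numbered 18707697 to 33613328 per library, with the hypoxia libraries (23027613 or more) deeper than the normoxia ones (21451760 or fewer). Arntl, the gene of Bmal1, was lower in each knockout library than in each wild-type library, with normalized reads of 264 and 267 in wild-type normoxia, 325, 328 and 322 in wild-type hypoxia, 109, 117 and 98.8 in knockout normoxia and 128, 134 and 128 in knockout hypoxia. Here and below a difference is that of log2(normalized count + 1) from 1 limma fit over all libraries, a scale that understates changes of low counts, with Benjamini-Hochberg adjustment over the 14729 genes. The normoxia difference of Arntl was -1.29 (SE 0.10, adjusted p = 2.24e-06). That in hypoxia was -1.31 (SE 0.09, adjusted p = 4.96e-07). Of 8 myoblast identity markers 7 were tested, and Pax7 (1123 to 1595), Myod1 (7793 to 9502) and the proliferation marker Mki67 (13437 to 14821) were read in each library. Chrdl2, the eighth, had 0 to 7.45 normalized reads. Myog, which encodes myogenin and marks cells that have begun to differentiate, stood at 4596 to 7808. In a bulk library, fewer or more cells of a type and less or more RNA per cell cannot be told apart.

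Promoter sequence was read where it was held, as 250 bases before the RefSeq start of transcription in GRCm38.p6. Of the 38 genes 31 had at least 1 window, 36 windows in all (Tnni1, Tnnt2, Csrp3, Ldb3 and Myh7 had 2 each), and none was found for Lmod3, Xirp1, Tnnt3, Cacng1, Tnni2, Neb and Tcap. Both strands were searched for the E-box core CANNTG, for its form CACGTG, known to be bound by BMAL1, for its form CAGCTG, known to be bound by MyoD family factors, for the MEF2 site and for the CArG box, the site of serum response factor. The count of CANNTG includes its forms. CANNTG was in 29 of the 36 windows (80.6%) and in 66.2% of all 32536 windows of that length. CACGTG was in 2 windows (5.56%, against 6.04% of all), those of Actn2 and Unc45b. CAGCTG was in 13 (36.1%, against 13.1%). The MEF2 site was in 5 (13.9%, against 2.89%) and the CArG box in 5 (13.9%, against 1.48%). Of the 31 genes, 21 were called between genotypes in the comparisons given later, and they had 23 of the windows. CANNTG was in 16 of these 23 (66.2% of all windows), CAGCTG in 4 (13.1% of all) and CACGTG in 2 (6.04% of all). The MEF2 site was in 3 of the 23 (2.89% of all) and the CArG box in 5 (1.48% of all). Most of the 13 windows with CAGCTG were of genes not called between genotypes. A match of letters is a description and not a site in use. The windows of 4 genes that rose in knockout cells are shown, 1 for each of the motifs other than the core, trimmed to the bases outside annotated exons, with the match in capitals. Actn2 (chr13:12340761-12340982, minus strand) had CACGTG beginning 84 and 48 bases before the start. Mylpf (chr7:127211358-127211607, plus strand) had CAGCTG 51 bases before the start. Myh8 (chr11:67276874-67277123, plus strand) had the MEF2 site 99 bases before the start, and Actc1 (chr2:114052888-114053125, minus strand) the CArG box 47 bases before it. The Mylpf and Actc1 windows lie inside the annotated gene, outside its exons, and those of Actn2 and Myh8 lie upstream of it.
Actn2: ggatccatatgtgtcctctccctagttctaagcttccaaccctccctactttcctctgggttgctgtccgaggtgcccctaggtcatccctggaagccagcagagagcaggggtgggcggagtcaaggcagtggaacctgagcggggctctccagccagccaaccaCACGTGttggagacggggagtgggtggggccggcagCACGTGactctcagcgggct
Mylpf: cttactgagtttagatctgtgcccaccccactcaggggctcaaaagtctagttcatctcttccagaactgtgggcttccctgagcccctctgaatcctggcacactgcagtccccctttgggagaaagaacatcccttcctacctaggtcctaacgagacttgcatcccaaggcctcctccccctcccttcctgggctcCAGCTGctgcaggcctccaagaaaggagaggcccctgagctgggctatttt
Myh8: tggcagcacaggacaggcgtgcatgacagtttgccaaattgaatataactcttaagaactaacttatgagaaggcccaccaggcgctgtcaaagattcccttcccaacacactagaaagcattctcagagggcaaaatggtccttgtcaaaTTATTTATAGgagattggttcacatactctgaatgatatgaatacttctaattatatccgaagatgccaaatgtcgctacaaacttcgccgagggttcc
Actc1: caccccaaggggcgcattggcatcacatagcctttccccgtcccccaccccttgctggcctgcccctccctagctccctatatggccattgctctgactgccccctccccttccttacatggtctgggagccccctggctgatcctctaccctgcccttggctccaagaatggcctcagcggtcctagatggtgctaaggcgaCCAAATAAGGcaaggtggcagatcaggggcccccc

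Levels between genes were compared as normalized reads per kilobase of merged exons, a scale that understates genes with long rarely used exons. The cardiac and skeletal alpha-actins stood highest, Actc1 at 5274 and Acta1 at 5013 reads per kb as means over the 4 groups, above Tpm1 (4433), Mylpf (3107) and Tpm2 (2360.5). Each of these 5 overlapped its neighbour in that order in the range over libraries. The order differed by genotype, with both actins above Tpm1 in each knockout group. In wild-type hypoxia Tpm1 (4417) stood above Acta1 (4125) and Actc1 (4053). In wild-type normoxia Tpm1 (4518) stood above Acta1 (4131) and near Actc1 (4558). The median over 14625 tested genes with an exon length was 78.1 reads per kb, and 30 of the 38 genes lay above it. The lowest were Myom1 (37.5), the calcium channel Ryr1 (31.2) and the Z-disc gene Myoz2 (14.2). Several adult fast and cardiac isoforms outside the set were at or near 0 reads. The adult fast myosins Myh2 and Myh4 had 0 to 4.34 and 0 to 3.88 normalized reads in a library, the cardiac myosin Myh6 0 to 15.5, the ventricular light chain Myl2 0 to 10.3 and cardiac troponin I (Tnni3) 1.94 to 9.14. Of the sarcomeric myosin heavy chains read here, those above the minimum were the embryonic Myh3, the perinatal Myh8, the slow Myh7 and the fast Myh1.

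**Figure D1:**
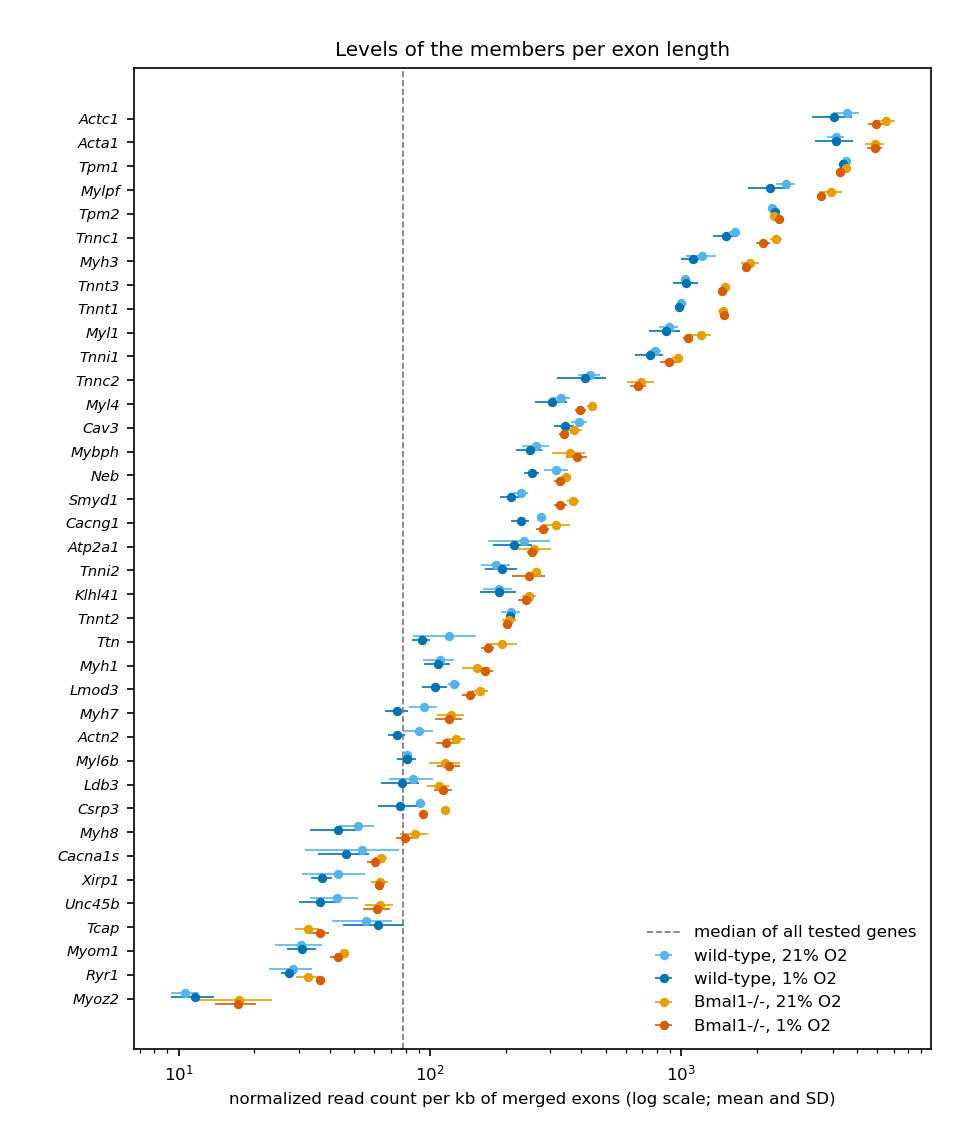
Normalized read count per kilobase of merged exons (log axis) for each of the 38 genes, ordered by the mean over groups; points are group means and bars the SD, n = 2 for wild-type cells at 21% O2 and n = 3 for the other groups. Actin, tropomyosin and Mylpf transcripts stand at the top, and the dashed line is the median of all tested genes, 78.1.

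The comparison of knockout with wild-type cells asked how the set differed between genotypes at each oxygen level. Most genes of the set stood higher in knockout cells at both. The labels do not give mouse or culture, so a difference of genotype cannot be told apart from one of mouse or culture. The set was chosen with earlier results of these data known. Shares of all tested genes printed beside its counts, here and below, are therefore a description and not a test of the set. In normoxia 19 of the 38 rose and 0 fell at an adjusted p under 0.05, where 3.44% of all tested genes rose and 5.66% fell (9.09% called in either direction). In hypoxia 24 rose and 0 fell, where 3.33% of all tested genes rose and 5.61% fell (8.95% in either direction). The median log2 difference of the set was 0.46 in normoxia and 0.49 in hypoxia, against medians of 0.0049 and 0.0045 over all tested genes, and 34 of 38 differences were positive at each oxygen level. The summed normalized count of the 38 genes was 99655 to 111075 in wild-type normoxia, 92646 to 101942 in wild-type hypoxia, 127650.0 to 140258 in knockout normoxia and 125257 to 128154 in knockout hypoxia. For 27 genes in normoxia every knockout library lay above every wild-type library, against 18.8% of all tested genes, and 1 gene lay below, against 19.6%. In hypoxia 29 lay above (12.4% of all tested genes) and 1 below (13.9%). Over both oxygen levels 23 of the 38 had all 6 knockout libraries above all 5 wild-type libraries, as did 4.05% of tested genes. The genotype comparisons share no libraries but share the variance estimate of each gene. They had 17 called genes in common, 89.5% of the 19 and 70.8% of the 24. Myl1 and Tnni2 were called in normoxia alone, and Ldb3, Lmod3, Mybph, Myh7, Neb, Ryr1 and Unc45b in hypoxia alone, but no gene of the set passed the test of the difference between oxygen levels given later. Leaving out WT-N1 lowered the normoxia count from 19 to 5 (median 0.34) and leaving out KO-N1 lowered it to 11 (median 0.40). Without the first, the single wild-type normoxia library is assumed to vary like the other groups.

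**Figure D2:**
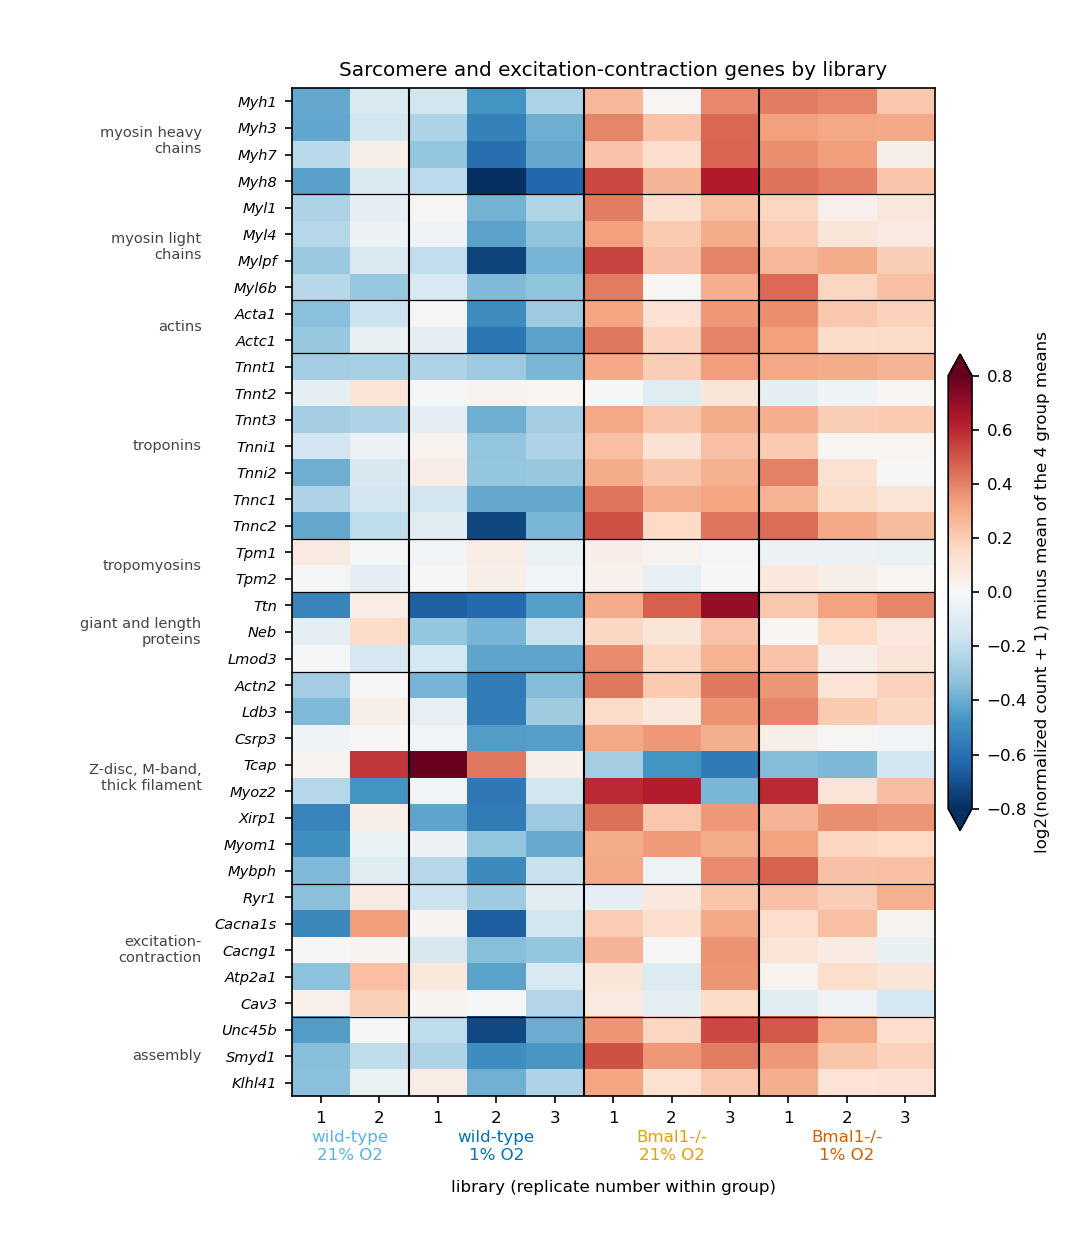
Deviation of log2(normalized count + 1) from the mean of the 4 group means, for 38 genes (rows, by role) in 11 libraries (columns, by group and replicate); the colour scale is limited to 0.8 either way. Knockout columns are red and wild-type columns blue for most rows, and the rows of Tpm1, Tpm2 and Tnnt2 are pale throughout.

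Myosin heavy chains are the motor proteins. In knockout cells 3 of 4 rose in normoxia (3.44% of all tested genes) and 4 of 4 in hypoxia (3.33%). Myh3 (ENSMUSG00000020908, chromosome 11, 67078300 to 67102291, GRCm38), the embryonic heavy chain, had 6626 and 8005 in wild-type and 11603, 10348 and 12189.5 in knockout cells in normoxia, and 7464, 6078 and 6742 in wild-type and 11106, 10960.3 and 10914 in knockout cells in hypoxia as normalized read counts. All knockout libraries lay above all wild-type libraries, and the log2 difference was 0.64 (SE 0.09, adjusted p = 0.000405) at 21% oxygen and 0.71 (SE 0.08, adjusted p = 5.71e-05) at 1%. Myh8, the perinatal chain, whose promoter window with the MEF2 site is shown above, had 539.7 and 675 against 1052, 883 and 1135 in wild-type and knockout normoxia, and 632, 410.5 and 472 against 985, 965 and 854 in wild-type and knockout hypoxia. Its difference was the largest in hypoxia among called genes of the set, 0.91 (SE 0.14, adjusted p = 0.000777) or 1.88-fold, and 0.75 (SE 0.16, adjusted p = 0.00793) in normoxia. Myh1, an adult fast chain, read 626 and 764 in wild-type and 998, 841 and 1088 in knockout cells in normoxia, and 752, 596 and 698 in wild-type and 1108, 1093 and 968 in knockout cells in hypoxia, with differences of 0.49 and 0.63, and again no overlap between genotypes. Myh7, the slow and cardiac beta chain, read 741 and 890.5 against 1007, 947 and 1186 in wild-type and knockout normoxia, and 694, 565 and 648 against 1115, 1084 and 888 in wild-type and knockout hypoxia. Its normoxia difference of 0.36 (adjusted p = 0.0919) did not pass, while that in hypoxia, 0.69 (adjusted p = 0.00101), did. DESeq2 called Myh7 in normoxia too (adjusted p = 0.0497). In normoxia the call of Myh1 was lost in a fit of only the groups compared (adjusted p = 0.0537) and without WT-N1, KO-N1 or KO-N3 (adjusted p = 0.0642 to 0.214) and that of Myh8 without WT-N1 (adjusted p = 0.105). Myh1, Myh3 and Myh8 are neighbours of high sequence identity on chromosome 11, so reads may be split between them.

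Myosin light chains stiffen the lever arm of the motor. Here 4 of 4 rose in normoxia (3.44% of all tested genes) and 3 of 4 in hypoxia (3.33%). Mylpf, the fast regulatory chain, had the highest counts of the 4, 2608 and 2945 in wild-type and 4650.5, 3762 and 4212 in knockout cells in normoxia, and 2794, 1919 and 2477 in wild-type and 3848, 3929.8 and 3672 in knockout cells in hypoxia. Its differences were 0.60 (SE 0.12, adjusted p = 0.0076) and 0.69 (SE 0.11, adjusted p = 0.00106), with no overlap of the genotypes. Myl1, the fast essential chain, read 1736 and 1963 against 2732, 2256 and 2438 in wild-type and knockout normoxia, and 2077, 1582 and 1745 against 2319, 2123 and 2195 in wild-type and knockout hypoxia. Its normoxia difference of 0.42 (adjusted p = 0.0205) passed and its hypoxia difference of 0.30 (adjusted p = 0.0561) did not. DESeq2 called it in hypoxia (adjusted p = 0.0167). All its knockout libraries lay above the wild-type ones at each level, as for 18.8% (normoxia) and 12.4% (hypoxia) of all tested genes. Myl4, the embryonic and atrial chain, read 1441 and 1633 in wild-type and 2116, 1951 and 2072 in knockout cells in normoxia, and 1647, 1252 and 1347 in wild-type and 1944, 1805 and 1772 in knockout cells in hypoxia, with differences of 0.41 and 0.39. Myl6b, an alkali chain, read 153 and 145 against 238, 179.9 and 219 in wild-type and knockout normoxia, and 164, 139.9 and 143 against 245, 202 and 211 in wild-type and knockout hypoxia, with differences of 0.50 and 0.55. The libraries of both genes separated by genotype. In normoxia the calls were lost without WT-N1 for each of the 4 (Mylpf adjusted p = 0.0886), for Myl1 also without KO-N1 (adjusted p = 0.0745 to 0.175), for Myl4 likewise (0.0509 to 0.148), and for Myl6b also without WT-N2 or KO-N1 or KO-N3 (0.072 to 0.183) and in a fit of only the groups compared (0.0843). In hypoxia the call of Myl4 was lost without WT-H2 (adjusted p = 0.0508).

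Both sarcomeric actins, the subunits of the thin filament, rose at each oxygen level, as did 3.44% (normoxia) and 3.33% (hypoxia) of all tested genes. Acta1, the skeletal alpha-actin, read 5996 and 6694 in wild-type and 9395, 8187 and 9617 in knockout cells in normoxia, and 7493, 5333 and 6182 in wild-type and 9783, 8782 and 8585 in knockout cells in hypoxia, differences of 0.51 (SE 0.11, adjusted p = 0.0111) and 0.53 (SE 0.10, adjusted p = 0.00409). Actc1, the cardiac alpha-actin expressed in immature skeletal muscle, read 6759.6 and 7989 against 11180.0, 9479.7 and 10974 in wild-type and knockout normoxia, and 7906, 5567 and 6199 against 10458, 9239 and 9278 in wild-type and knockout hypoxia, differences of 0.52 (SE 0.12, adjusted p = 0.0164) and 0.57 (SE 0.11, adjusted p = 0.00376). Knockout libraries lay above wild-type ones for both. The normoxia call of Acta1 was lost without WT-N1 (adjusted p = 0.111) and that of Actc1 without WT-N1 or KO-N1 (adjusted p = 0.0579 to 0.161). The 2 coding sequences are known to be near identical, and reads shared between them were placed by the authors' tools.

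Troponins are the calcium switch of the thin filament. Among them 5 of 7 rose in normoxia (3.44% of all tested genes) and 4 of 7 in hypoxia (3.33%). Tnnt1 (ENSMUSG00000064179, chromosome 7, 4504570 to 4516382), slow troponin T, which ties the complex to tropomyosin, read 2191 and 2210.2 in wild-type and 3286, 3053 and 3357 in knockout cells in normoxia, and 2243, 2177 and 2068 in wild-type and 3299, 3270.5 and 3216 in knockout cells in hypoxia. Its differences of 0.55 (SE 0.05, adjusted p = 1.06e-05) and 0.59 (SE 0.05, adjusted p = 1.73e-06) had the smallest adjusted p of the set at both oxygen levels. Fast troponin T, Tnnt3, read 1622 and 1652 against 2428, 2284 and 2412 in wild-type and knockout normoxia, and 1858, 1493 and 1619 against 2401, 2241 and 2261 in wild-type and knockout hypoxia, with differences of 0.54 and 0.48. The cardiac and embryonic form Tnnt2 read 1522 and 1720.5 in wild-type and 1602, 1498 and 1712 in knockout cells in normoxia, and 1588, 1624 and 1615 in wild-type and 1523, 1566 and 1614 in knockout cells in hypoxia. Here the genotypes overlapped, and the difference was -0.01 (95% interval, not adjusted for the number of genes, -0.16 to 0.13) in normoxia and -0.04 (-0.16 to 0.09) in hypoxia. The calcium-binding subunits Tnnc1 (slow and cardiac) and Tnnc2 (fast) both rose. Tnnc1 read 1640.4 and 1759 against 2629, 2386 and 2430.3 in wild-type and knockout normoxia, and 1762, 1469 and 1468 against 2362, 2158 and 2095 in wild-type and knockout hypoxia, with differences of 0.55 and 0.50. Tnnc2 read 320.2 and 369.9 in wild-type and 608, 477 and 575 in knockout cells in normoxia, and 401, 257 and 331 in wild-type and 582, 526 and 508 in knockout cells in hypoxia, with differences of 0.68 and 0.73, and both separated the genotypes. Tnnc2 shares exon positions with Ube2c on the opposite strand, at a mean of 1851 normalized reads. Of the inhibitory subunits, fast Tnni2 read 249 and 300.3 against 403, 382 and 399 in wild-type and knockout normoxia, and 339, 264 and 266 against 434, 357 and 327 in wild-type and knockout hypoxia. It rose in normoxia, 0.53 (adjusted p = 0.025), and did not pass in hypoxia, 0.36 (adjusted p = 0.0847), where the libraries overlapped. Slow Tnni1, from 2444 to 3584 over all libraries, did not pass at either level (0.29, adjusted p = 0.0612 and 0.26, adjusted p = 0.0656), but did in DESeq2 (adjusted p = 0.0221 and 0.0248) and, in normoxia, in a fit of only the groups compared (adjusted p = 0.0253). The normoxia call of Tnni2 was lost without WT-N1, KO-N1, KO-N2 or KO-N3 (adjusted p = 0.0519 to 0.21) and that of Tnnc2 without WT-N1 or KO-N1 (adjusted p = 0.0529 to 0.126). The calls of Tnnt1, Tnnt3 and Tnnc1 held with each of the 11 libraries left out.

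Tropomyosins are the strands that cover the myosin sites of actin. Of 2 genes, 0 were called in normoxia or in hypoxia (9.09% and 8.95% of all tested genes). Tpm1 read 30210.2 and 28384 against 29840.2, 29354 and 28597 in wild-type and knockout normoxia, and 28277, 29959 and 27690.1 against 27840.1, 27761 and 27753 in wild-type and knockout hypoxia. Tpm2 read 6821 and 6497 against 7031, 6568 and 6844 in wild-type and knockout normoxia, and 6847, 7076 and 6748 against 7263, 7105 and 6942 in wild-type and knockout hypoxia. The genotypes overlapped for both genes. The difference of Tpm1 was -0.001 (95% interval -0.09 to 0.09) in normoxia and -0.04 (-0.12 to 0.04) in hypoxia, and that of Tpm2 was 0.03 (-0.06 to 0.13) and 0.04 (-0.04 to 0.13). Both genes also make non-muscle isoforms by alternative promoters and splicing, and the deposited values sum over isoforms.

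Of the proteins that set filament length, 1 of 3 rose in normoxia (3.44% of all tested genes) and 3 of 3 in hypoxia (3.33%). Ttn (ENSMUSG00000051747, chromosome 2, 76703980 to 76982547) encodes titin, the spring that runs from Z-disc to M-band, and read 11108 and 16700.2 in wild-type and 19704, 22345 and 26032 in knockout cells in normoxia, and 10188, 10414 and 11812 in wild-type and 18586, 20046 and 20985 in knockout cells in hypoxia. Its differences were 0.73 (SE 0.14, adjusted p = 0.00477), 1.66-fold, and 0.88 (SE 0.12, adjusted p = 0.000398), 1.84-fold, with no overlap of the genotypes although the 2 wild-type normoxia libraries stood apart from each other. Neb, which encodes nebulin, the ruler of the thin filament, read 7805 and 9121 against 9245, 8820.1 and 9656 in wild-type and knockout normoxia, and 6654, 6371 and 7295 against 8318, 9209 and 8735 in wild-type and knockout hypoxia. It overlapped between genotypes in normoxia, 0.13 (adjusted p = 0.3), and lay higher in each knockout library in hypoxia, 0.37 (adjusted p = 0.00187). Lmod3, a leiomodin that nucleates and lengthens thin filaments, read 287 and 265 in wild-type and 377, 326 and 352 in knockout cells in normoxia, and 263, 216 and 217 in wild-type and 340.4, 302 and 313 in knockout cells in hypoxia. Its difference was 0.35 (adjusted p = 0.0608) in normoxia, short of the threshold, and 0.46 (adjusted p = 0.00736) in hypoxia. The normoxia call of Ttn was lost without WT-N1 (adjusted p = 0.0632), with a log2 difference then of 0.43.

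At the Z-disc, M-band and thick filament 3 of 8 rose in normoxia (3.44% of all tested genes) and 5 of 8 in hypoxia (3.33%). Actn2, the alpha-actinin that crosslinks actin at the Z-disc and whose window with 2 matches to CACGTG is printed above, read 311 and 376 in wild-type and 505, 435 and 506 in knockout cells in normoxia, and 291, 255 and 295 in wild-type and 481, 407 and 428 in knockout cells in hypoxia, with differences of 0.49 (SE 0.11, adjusted p = 0.0131) and 0.64 (SE 0.10, adjusted p = 0.000784). Xirp1, an actin-binding repeat protein of growing myofibrils, read 201 and 300.3 against 396, 337 and 370.1 in wild-type and knockout normoxia, and 217, 197 and 238 against 351, 377 and 372 in wild-type and knockout hypoxia, with differences of 0.58 and 0.76. Myom1, which crosslinks myosin in the M-band, read 273 and 369.9 in wild-type and 473, 487 and 472 in knockout cells in normoxia, and 372, 309 and 289.9 in wild-type and 481, 434 and 429 in knockout cells in hypoxia, with differences of 0.59 and 0.47. Each of these 3 genes had all knockout libraries above all wild-type libraries. Myom1 shares exon positions with Myl12a on the opposite strand, whose mean was 10239 normalized reads. Ldb3, a PDZ-LIM protein of the Z-disc, read 451 and 595 against 639, 611 and 737 in wild-type and knockout normoxia, and 551, 389 and 472 against 756, 666 and 647 in wild-type and knockout hypoxia. Mybph, a myosin-binding protein, read 561 and 668 in wild-type and 882, 697 and 931 in knockout cells in normoxia, and 611, 503 and 632 in wild-type and 994, 841 and 846 in knockout cells in hypoxia. Both separated the genotypes, and they passed in hypoxia (0.56, adjusted p = 0.013 and 0.62, adjusted p = 0.00375) and not in normoxia (0.35, adjusted p = 0.156 and 0.44, adjusted p = 0.0541), although Mybph passed there in DESeq2 (adjusted p = 0.0154) and with a minimum of 50 reads. Csrp3, a LIM protein that ranged from 181 to 315, and Myoz2, a calcineurin-binding Z-disc protein that ranged from 30.9 to 72.5, had positive differences that did not pass (0.33 and 0.32, and 0.64 and 0.56). Csrp3 passed at both oxygen levels without WT-H1 (adjusted p = 0.0249 and 0.00404), and Myoz2 in normoxia without KO-N3 (adjusted p = 0.0257). The normoxia call of Actn2 was lost without WT-N1 (adjusted p = 0.152), that of Xirp1 without WT-N1 or KO-N1 (adjusted p = 0.0705 to 0.238) or in a fit of only the groups compared (adjusted p = 0.0807), and that of Myom1 without WT-N1 (adjusted p = 0.134). In hypoxia the call of Ldb3 was lost without WT-H2 or KO-H1 (adjusted p = 0.0586 to 0.0592) and that of Myom1 without WT-H2, WT-H3 or KO-H1 (adjusted p = 0.0616 to 0.071).

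Tcap, which encodes telethonin and caps titin at the Z-disc, had negative differences. It read 42.8 and 62.8 in wild-type and 34.8, 30.0 and 28.2 in knockout cells in normoxia, and 75.3, 56.9 and 43.5 in wild-type and 33.0, 32.7 and 37.9 in knockout cells in hypoxia. All 6 knockout libraries lay below all 5 wild-type libraries, a separation shown by 6.28% of tested genes, and no other gene of the set had it. The differences were -0.73 (SE 0.25, adjusted p = 0.0863) and -0.71 (SE 0.22, adjusted p = 0.0627), and neither passed. In edgeR the hypoxia difference passed (adjusted p = 0.0488), and in DESeq2 it did not (adjusted p = 0.103). Without WT-H3 it passed in limma (adjusted p = 0.0301). Its lowest count in a library, 28.2, was below that of every other gene of the set.

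Excitation-contraction genes had 0 of 5 called in normoxia (9.09% of all tested genes) and 1 of 5 in hypoxia (8.95%). Ryr1, the calcium release channel of the sarcoplasmic reticulum, read 534 and 707 against 640.4, 717 and 789 in wild-type and knockout normoxia, and 600.4, 555 and 637 against 794, 773 and 822 in wild-type and knockout hypoxia. It overlapped between genotypes in normoxia, 0.21 (adjusted p = 0.271), and did not in hypoxia, 0.42 (adjusted p = 0.0174). That call was lost without WT-H2 or KO-H3 (adjusted p = 0.0635 to 0.0771). Cacna1s, the voltage sensor, ranged from 226 to 452, its gamma subunit Cacng1 from 271 to 439.6, and the calcium pump Atp2a1 (SERCA1) from 616 to 1057. Their hypoxia differences of 0.40 (95% interval -0.01 to 0.81), 0.30 (0.09 to 0.51) and 0.24 (-0.08 to 0.57) were positive and did not pass, and those in normoxia were 0.31, 0.20 and 0.16. Cav3, the muscle caveolin, ranged from 355 to 477 and differed by -0.07 (-0.28 to 0.14) and -0.01 (-0.20 to 0.17).

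Sarcomere folding and assembly factors had 1 of 3 higher in normoxia (3.44% of all tested genes) and 2 of 3 in hypoxia (3.33%). Smyd1 (ENSMUSG00000055027, chromosome 6, 71213940 to 71322233), a muscle methyltransferase that works with the myosin chaperone, read 992 and 1093 in wild-type and 1793, 1602 and 1673 in knockout cells in normoxia, and 1058, 889 and 911 in wild-type and 1601, 1467 and 1432 in knockout cells in hypoxia. Its differences of 0.70 (SE 0.08, adjusted p = 9.47e-05) and 0.66 (SE 0.07, adjusted p = 5.12e-05) were 1.62-fold and 1.58-fold, with no overlap. Unc45b, that myosin chaperone, read 162 and 220.3 against 283, 249 and 319 in wild-type and knockout normoxia, and 192, 134 and 168 against 311, 274 and 244 in wild-type and knockout hypoxia and passed in hypoxia, 0.76 (adjusted p = 0.00598), while its normoxia difference of 0.58 (adjusted p = 0.0517) did not, but was called in DESeq2 (adjusted p = 0.0314) and with a minimum of 50 reads. Klhl41, a kelch protein that keeps nebulin stable, ranged from 413 to 671. Its differences of 0.41 (adjusted p = 0.051) and 0.36 (adjusted p = 0.0561) did not pass. Both passed in DESeq2 (adjusted p = 0.0289 and 0.0275), the first also with a minimum of 50 reads. All its knockout libraries lay above the wild-type ones at each level, as for 18.8% and 12.4% of all tested genes.

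**Figure D3:**
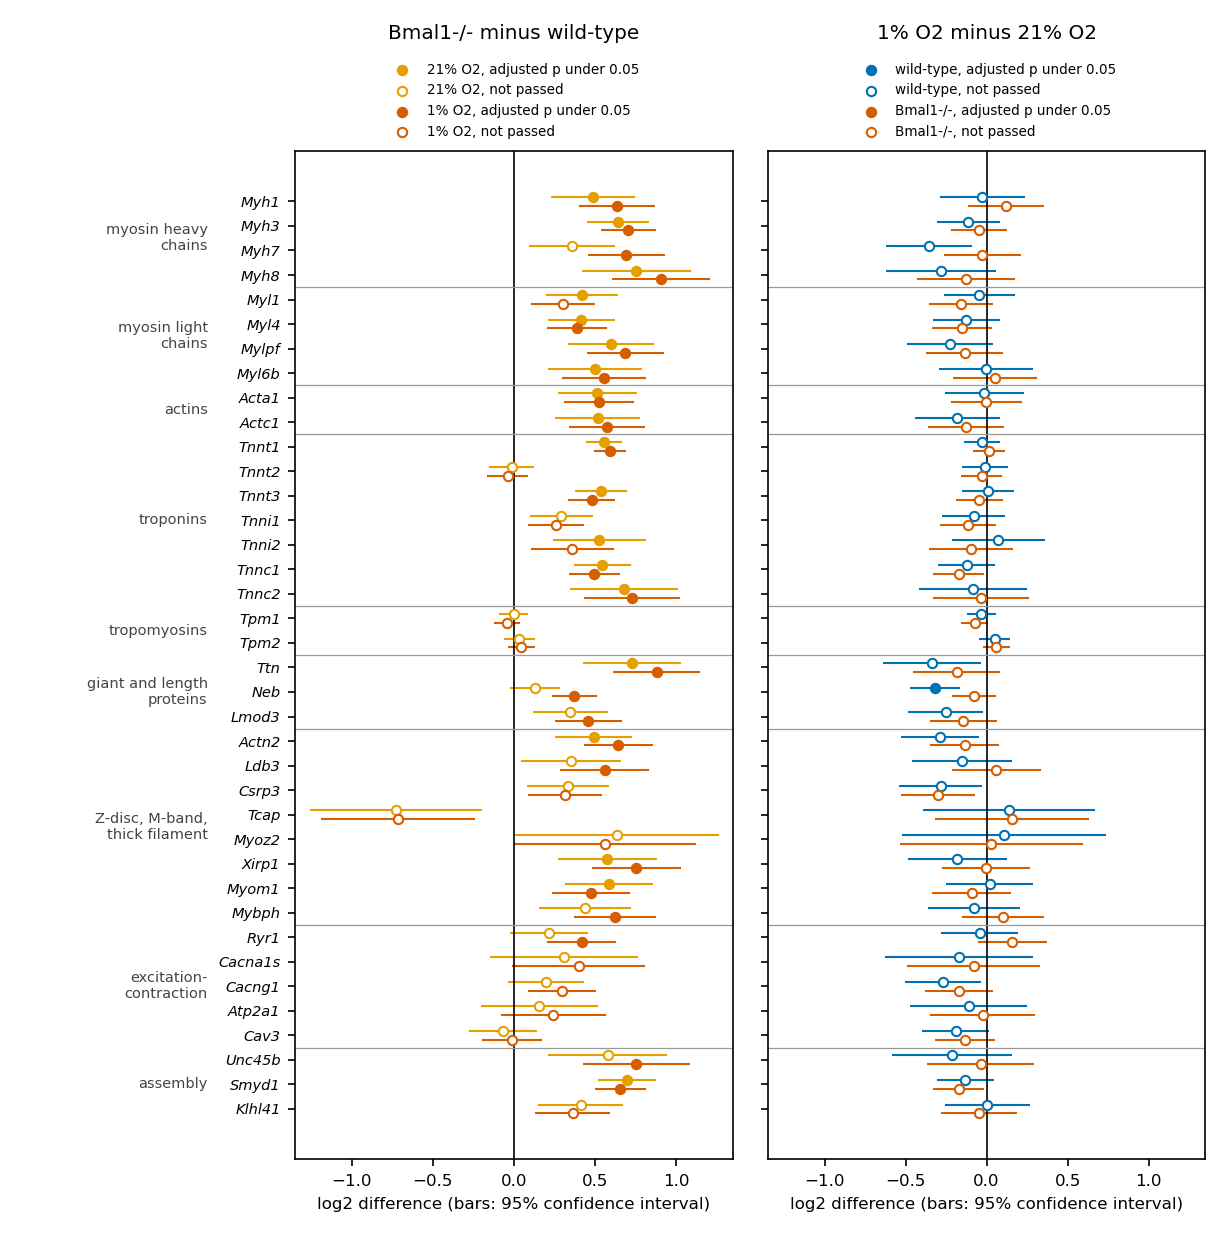
Log2 differences of the 38 genes with 95% confidence intervals from the limma fit, knockout minus wild-type at each oxygen level (left) and hypoxia minus normoxia in each genotype (right); filled points passed at an adjusted p under 0.05. Filled points fill the right side of the genotype panel (19 in normoxia, 24 in hypoxia), and the oxygen panel has 1, Neb in wild-type cells.

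The counts in normoxia rested more on single libraries than those in hypoxia. Of the 19 normoxia calls, 5 held with each of the 11 libraries left out in turn (Myh3, Tnnt1, Tnnt3, Tnnc1 and Smyd1), and of the 24 hypoxia calls 20 did. The median difference of the set stayed positive in each of these fits, from 0.34 to 0.55 in normoxia and from 0.41 to 0.58 in hypoxia. Genes of the set moved together between libraries of a group. In wild-type normoxia WT-N2 was the higher library for 33 of 38 genes, against 48.9% of all tested genes. In wild-type hypoxia WT-H1 was the highest for 29 and WT-H2 the lowest for 29, and in knockout normoxia KO-N2 was the lowest for 31. In knockout hypoxia KO-H1 was the highest for 28. In these groups of 3 a library was the highest for 30 to 35.8% and the lowest for 31.3 to 35.7% of all tested genes.

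The comparison of 1% with 21% oxygen asked whether 6 h of low oxygen altered the set. In wild-type cells 0 of 38 rose and 1 fell, where 1.7% of all tested genes rose and 0.468% fell (2.17% in either direction). In knockout cells 0 rose and 0 fell, where 3.15% rose and 0.937% fell (4.09% in either direction). At an unadjusted p under 0.05 there were 7 of 38 in wild-type cells, where 13.6% of all tested genes passed that threshold, and 3 of 38 in knockout cells, where 17.5% did. In knockout cells edgeR and DESeq2 also called 0 of 38. The median log2 change was -0.11 in wild-type and -0.06 in knockout cells, against -0.0025 and -0.0052 over all tested genes, and 7 and 9 of 38 changes were positive. The wild-type median became -0.0057 without WT-N2 and -0.03 without WT-H2, and -0.20 without WT-N1 or WT-H1. In 6 genes every wild-type hypoxia library lay below every wild-type normoxia library, against 14.4% of all tested genes, and in 0 above, against 15.4%. In knockout cells 5 lay below (10.7%) and 0 above (11.9%).

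The gene that fell was Neb, by 0.32 on the log2 scale (SE 0.07, adjusted p = 0.0335) in wild-type cells, where its hypoxia libraries lay below the normoxia ones. In knockout cells its change was -0.08 (adjusted p = 0.583). The wild-type call was lost without WT-N2, KO-N1, WT-H1 or WT-H2 (adjusted p = 0.0534 to 0.356), and in a fit of the wild-type libraries alone (adjusted p = 0.0963). Myh7 (-0.36, adjusted p = 0.201), Ttn (-0.34, adjusted p = 0.302), Actn2 (-0.29, adjusted p = 0.269) and Csrp3 (-0.28, adjusted p = 0.302) had negative changes in wild-type cells that did not pass. Ttn passed without WT-N1 (adjusted p = 0.0242) and Csrp3 without WT-H1 (adjusted p = 0.0345). In knockout cells Csrp3 had the largest negative change of the set, -0.30 (adjusted p = 0.149), and passed without WT-H1 (adjusted p = 0.0406). Tnnt1, whose genotype differences had the smallest adjusted p, changed by -0.03 (95% interval -0.14 to 0.09) in wild-type and 0.01 (-0.08 to 0.11) in knockout cells.

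The difference between the oxygen responses of the genotypes was tested as an interaction. None of the 38 genes passed, with 0 called in either direction, where 0.00679% of tested genes were called. At an unadjusted p under 0.05 there was 1 of the 38, where 5.32% of all tested genes passed. DESeq2 and edgeR also called 0 of the 38. The gene with an unadjusted p under 0.05 was Neb, at 0.24 (adjusted p = 0.905), with a 95% interval of 0.03 to 0.45. Genes called at 1 oxygen level alone had differences of 0.33 for Myh7 (-0.02 to 0.69), 0.20 for Ryr1 (-0.12 to 0.52) and -0.11 for Myl1 (-0.41 to 0.18), and were not shown to differ between oxygen levels.

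**Figure D4:**
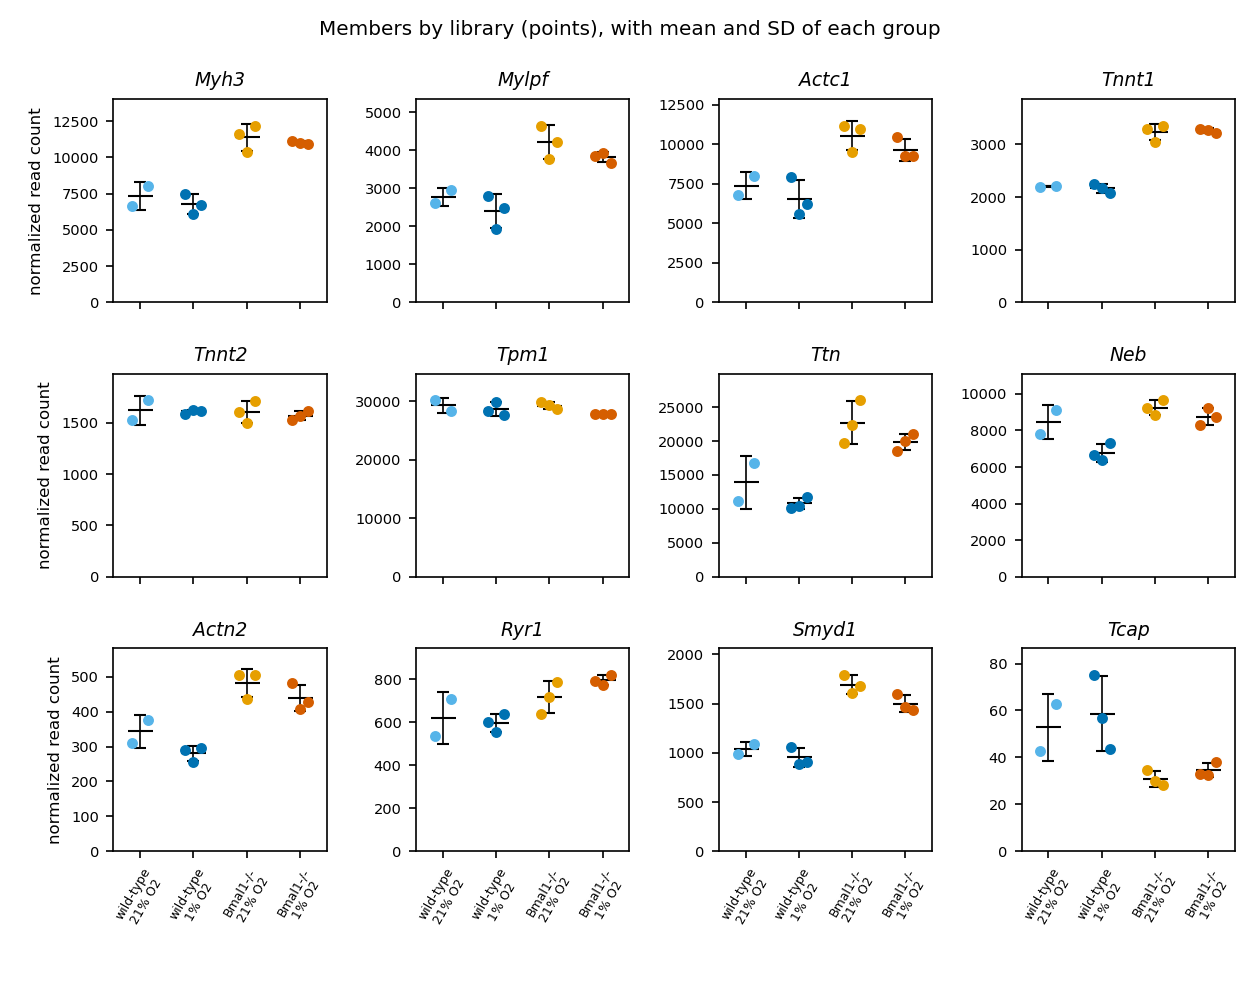
Normalized read counts of 12 genes of the set in each library (points), with the mean and SD of each group (n = 2 for wild-type cells at 21% O2, n = 3 otherwise); the vertical axes start at 0. Knockout points lie above wild-type points for Myh3, Mylpf, Actc1, Tnnt1, Ttn, Actn2 and Smyd1 and below them for Tcap, and the groups overlap for Tnnt2 and Tpm1.

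Shares within a protein family were taken per kilobase and are given without a test. They depend on the merged exon length of each gene, 7752 bases for Tnnt2 against 2204 for Tnnt1 and 1583 for Tnnt3. By mean normalized count Tnnt2 (1621) and Tnnt3 (1637) were near level in wild-type normoxia. Myh3 held 82.5 to 84.6% of the 4 myosin heavy chains in each of the 11 libraries. In troponin T the share of Tnnt2 was 8.86 to 9.78% in wild-type normoxia and 8.55 to 9.79% in wild-type hypoxia, and 6.4 to 6.76% and 6.12 to 6.73% in the knockout groups. The genotypes did not overlap in that share. Mylpf took 66.6 to 66.8% and 62.0 to 65.9% of the 4 light chains in wild-type normoxia and hypoxia, and 68.8 to 69.7% and 68.4 to 70.9% in knockout cells. Myl1 took 22.7 to 22.8% and 23.8 to 26.2% in wild-type cells and 20.6 to 21.1% and 19.6 to 21.1% in knockout cells. The wild-type and knockout values of both light chains did not overlap. Acta1 and Actc1 were near parity, with Acta1 at 46.9 to 51.2% of their sum in every library.

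**Figure D5:**
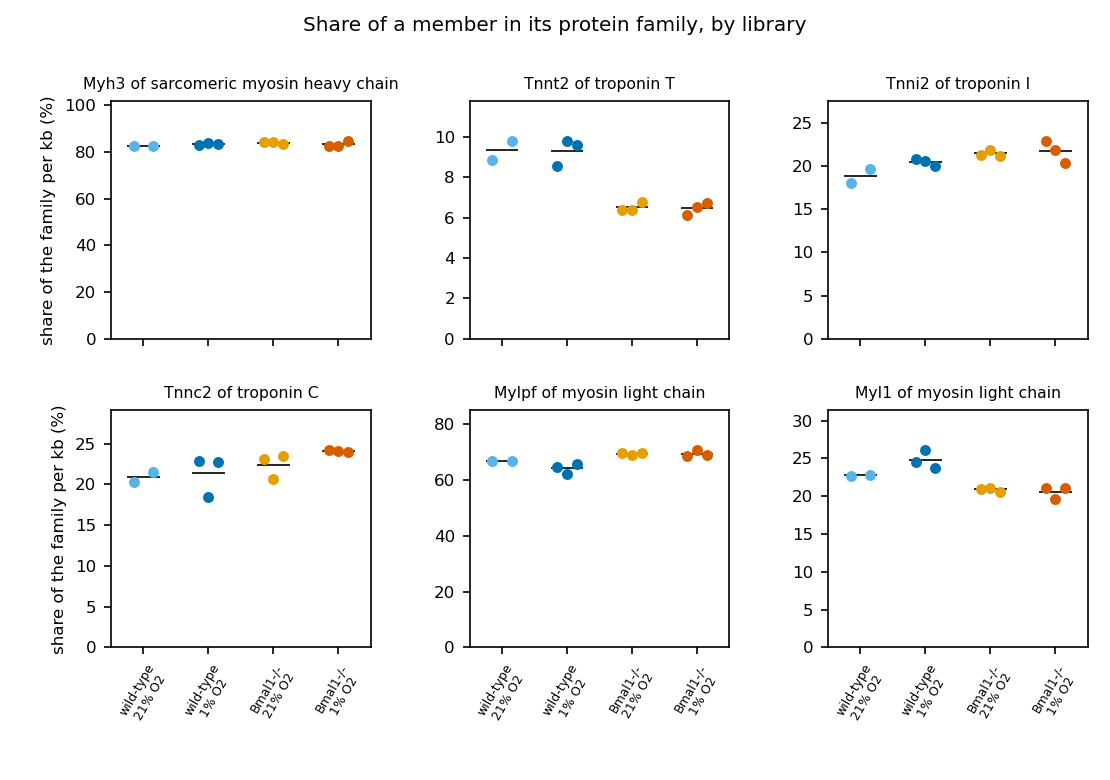
Share of 6 genes in the summed reads per kilobase of their protein family, in percent, by library (points) and group mean (lines). Shares depend on the merged exon length of each gene. Tnnt2 is at 8.55 to 9.79% of troponin T in wild-type libraries and 6.12 to 6.76% in knockout libraries, and Myh3 stays at 82.5 to 84.6% of the 4 myosin heavy chains.

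A wider list of 58 sarcomere, triad, synapse and turnover genes outside the set was read the same way. Of these 57 were in the table and 46 were tested. In knockout cells 15 rose and 1 fell in normoxia, and 20 rose and 1 fell in hypoxia, with median differences of 0.23 and 0.26. Over all tested genes 3.44% rose and 5.66% fell in normoxia, and 3.33% rose and 5.61% fell in hypoxia. Mybpc1, the slow myosin-binding protein C, differed more than any gene of the set, 1.18 (SE 0.12, adjusted p = 2.63e-05) and 1.38 (SE 0.11, adjusted p = 1.91e-06), at 227 and 306 in wild-type normoxia, 249.7, 229.8 and 242 in wild-type hypoxia, 578, 595 and 624 in knockout normoxia and 682, 663 and 544 in knockout hypoxia. Pdlim3, a Z-disc PDZ-LIM protein, differed by 0.95 (adjusted p = 8.94e-05) and 1.10 (adjusted p = 6.7e-06), and Trim54, a titin-associated ring finger protein, by 1.02 (adjusted p = 0.000296) and 0.78 (adjusted p = 0.000902). The M-band gene Myom2 (0.57 and 0.44), the calcium buffer Casq2 (0.60 and 0.67), the nebulin-related anchoring gene Nrap (0.40 and 0.58) and the acetylcholine receptor subunit Chrna1 (0.19 and 0.19) also rose at both levels. Fhl1, a LIM-only protein, fell, with log2 differences of -0.27 (adjusted p = 0.0213) and -0.41 (adjusted p = 0.000547). In normoxia the call of Casq2 was lost without WT-N1 (adjusted p = 0.0546), that of Nrap without WT-N1, KO-N1 or KO-N3 (adjusted p = 0.0557 to 0.261), that of Fhl1 without WT-N1 or KO-N3 (adjusted p = 0.0551 to 0.213) and that of Chrna1 without WT-N2 (adjusted p = 0.0503). In a fit of only the groups compared the normoxia calls of Nrap (adjusted p = 0.0619) and Fhl1 (adjusted p = 0.0908) were lost as well.

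On calcium handling, 5 of 15 tested genes of the wider list rose in normoxia and 7 in hypoxia in knockout cells. The shares over all tested genes were 3.44% and 3.33%. Jph1, a junctophilin that holds the triad membranes together, did not differ by the test in normoxia, 0.12 (adjusted p = 0.611), and was higher in hypoxia, 0.83 (adjusted p = 0.000205). It read 228 and 233 in wild-type normoxia, 195, 195 and 204 in wild-type hypoxia, 248, 216 and 293 in knockout normoxia and 375, 314 and 373 in knockout hypoxia. With oxygen, Jph1 changed by -0.22 (adjusted p = 0.477) in wild-type and rose by 0.49 (adjusted p = 0.0203) in knockout cells, and the difference of these changes did not pass (0.71, adjusted p = 0.598). Jsrp1, a partner of the voltage sensor, also rose in knockout hypoxia against normoxia, 0.30 (adjusted p = 0.0126). The knockout oxygen calls were lost without KO-N1, KO-N2, KO-H1 or KO-H3 (adjusted p = 0.0701 to 0.0885) for Jph1 and without KO-N2 or KO-H1 (adjusted p = 0.0539 to 0.0645) for Jsrp1. In wild-type hypoxia Asph, the junctin and aspartyl hydroxylase gene, rose by 0.25 (adjusted p = 0.0216) and the ubiquitin ligase Fbxo32 by 0.43 (adjusted p = 0.0402). Those calls were lost without WT-N1, WT-N2 or WT-H1 (adjusted p = 0.0652 to 0.193) for Asph and without WT-N1, WT-N2, KO-N1, KO-N2, KO-N3, WT-H1 or KO-H2 (adjusted p = 0.0501 to 0.213) for Fbxo32. In a fit of only the groups compared the calls of Jph1, Asph and Fbxo32 were lost too (adjusted p = 0.0578, 0.109 and 0.0776), that of Fbxo32 also with no filter. In knockout cells DESeq2 called Asph (adjusted p = 0.0496) and Fbxo32 (adjusted p = 0.00611) for oxygen. These 4 genes were the only ones of the 46 called for oxygen in either genotype by limma over all libraries. Over all tested genes 2.17% were called for oxygen in wild-type and 4.09% in knockout cells.

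Non-muscle counterparts of the contractile proteins did not share the direction. Of 14 cytoplasmic actins, myosins, tropomyosins, actinins and related genes, 0 rose and 4 fell in knockout normoxia and 0 rose and 3 fell in hypoxia, with medians of -0.09 and -0.09. Over all tested genes 5.66% fell in normoxia and 5.61% in hypoxia. Actn1, a non-muscle alpha-actinin, differed by -0.31 (adjusted p = 0.00505) and -0.17 (adjusted p = 0.0663), the cytoplasmic light chain Myl6 by -0.09 (adjusted p = 0.19) and -0.17 (adjusted p = 0.00547), and the capping protein Tmod3 by -0.07 (adjusted p = 0.451) and -0.22 (adjusted p = 0.00438). The call of Actn1 was lost without WT-N2 (adjusted p = 0.0592), and DESeq2 called Actn1 in hypoxia as well (adjusted p = 0.0363).

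Regulators of the myogenic program were read beside the set. Of 12 regulator and fusion genes 3 rose in knockout normoxia and 4 in hypoxia, and 0 fell. Over all tested genes 3.44% rose in normoxia and 3.33% in hypoxia. Myf5, a determination factor, differed by 0.59 (adjusted p = 0.000306) and 0.51 (adjusted p = 0.000318), and Mef2c by 0.52 (adjusted p = 0.00499) and 0.36 (adjusted p = 0.0234). Myog, with 5687 and 6509.7 in wild-type normoxia, 5808, 4596 and 4664 in wild-type hypoxia, 7639, 6901 and 7808 in knockout normoxia and 6929, 6231 and 6113 in knockout hypoxia, passed in hypoxia, 0.36 (adjusted p = 0.0165), and not in normoxia, 0.29 (adjusted p = 0.0794), where DESeq2 called it (adjusted p = 0.0297). Myod1 (-0.13, adjusted p = 0.221 and 0.05, adjusted p = 0.65) and Pax7 (-0.20, adjusted p = 0.249 and -0.03, adjusted p = 0.91) did not pass. Of 7 tested identity markers, Myf5 rose in normoxia and Myf5 and Itga7, an integrin of muscle cells, rose in hypoxia. Itga7 differed by 0.09 (adjusted p = 0.348) and 0.23 (adjusted p = 0.00821), and the adhesion gene Vcam1 by 0.10 (adjusted p = 0.261) and -0.03 (adjusted p = 0.763). With hypoxia Vcam1 fell in knockout cells, -0.25 (adjusted p = 0.00495), as did 0.937% of all tested genes. That call held with each of the 11 libraries left out, and no other identity marker was called for oxygen. The fusion genes Mymk (0.40, adjusted p = 0.0421 and 0.31, adjusted p = 0.0809) and Mymx (0.38, adjusted p = 0.1 and 0.49, adjusted p = 0.0191) passed at 1 oxygen level each. In hypoxia the calls of Myog and Mymx were lost without WT-H2 or WT-H3 or KO-H1 (adjusted p = 0.0703 to 0.0772 and 0.0612 to 0.088), and that of Mef2c without these or KO-H2 (0.0766 to 0.101). The normoxia call of Mymk was lost without any of 8 libraries (0.0503 to 0.238) and with no filter. The 4 markers of differentiated myocytes (Myog, Mymk, Mymx and Ckm) summed to 6671 to 7650.2 in wild-type normoxia, 5432 to 6965 in wild-type hypoxia, 8214 to 9278 in knockout normoxia and 7297 to 8322 in knockout hypoxia. Most of each sum was Myog, and Myog, Mymk and Mymx are also among the 12 regulator and fusion genes. The part that a shift in the number of differentiating cells had in the result on the set was not tested.

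Markers of other cell types also differed between genotypes. Over all tested genes 3.44% rose and 5.66% fell in knockout normoxia, and 3.33% rose and 5.61% fell in knockout hypoxia. Of 8 fibroblast markers 6 were tested, 0 rose and 5 fell in knockout cells in normoxia and 5 in hypoxia, and Dpt and Pi16 had 0 to 3.89 and 0 to 4.22 normalized reads in a library. Pdgfra, a receptor of fibro-adipogenic progenitors, differed by -1.38 (adjusted p = 1.25e-07) and -1.29 (adjusted p = 5.62e-08), Col3a1 by -0.36 and -0.27 and Cd34 by -0.75 and -0.63. The list summed to 17094 to 19147 in wild-type normoxia, 19061 to 19285 in wild-type hypoxia, 12893 to 13532 in knockout normoxia and 14801 to 15566 in knockout hypoxia. Of 8 smooth muscle markers 0 rose and 3 fell at each oxygen level, Cnn1 (-1.31 and -1.82), Tagln (-0.54 and -0.69) and Acta2 (-0.20 and -0.18), and the list summed to 35282 to 37268 in wild-type normoxia, 31597 to 32488 in wild-type hypoxia, 30764 to 30932 in knockout normoxia and 27034 to 27415 in knockout hypoxia. The normoxia call of Acta2 was lost without WT-N1 (adjusted p = 0.0514). Acta2, Cnn1 and Tagln are also known to be read in cultured myoblasts. Of 8 proliferation markers 3 rose in knockout cells in each comparison and 0 fell, with Top2a at 0.25 and 0.17 and Mki67 at 0.04 (adjusted p = 0.623) and 0.09 (adjusted p = 0.136), and they summed to 44871 to 45646 in wild-type normoxia, 44794 to 46386 in wild-type hypoxia, 48509 to 50926 in knockout normoxia and 48979 to 51149 in knockout hypoxia. Aurkb differed by 0.19 and 0.15 and Ccnb1 by 0.10 and 0.14, and their calls, in normoxia for Aurkb and in hypoxia for Ccnb1, were lost without any of 8 and any of 7 libraries, and both with no filter. That of Aurkb was also lost in edgeR (adjusted p = 0.0519), in DESeq2 (adjusted p = 0.068) and in a fit of only the groups compared (adjusted p = 0.106). The hypoxia call of Top2a was lost without WT-H3 or KO-H1 (adjusted p = 0.0747 to 0.0847). Of 8 endothelial and leukocyte markers 3 were tested and 0 called, with sums of 53.5 to 58.2 in wild-type normoxia, 31.5 to 49.9 in wild-type hypoxia, 32.3 to 61.9 in knockout normoxia and 32.0 to 49.2 in knockout hypoxia, and of 8 cardiomyocyte markers 4 were in the table and 0 reached the minimum, with sums of 6.85 to 10.7 in wild-type normoxia, 2.33 to 9.14 in wild-type hypoxia, 2.48 to 8.68 in knockout normoxia and 3.07 to 19.4 in knockout hypoxia. Myh6, Nppb and Tbx5 of that list were at 0 in each library of at least 1 group. The part that a shift in the cell types of these lists, such as fibroblasts, had in the differences of the set was not tested.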

How the data were processed

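Stranded total RNA libraries of 11 myoblast samples gave 1 deposited table. The authors' deposited values, a signal per gene, are gene counts divided by a size factor for each library. The submitters' processing notes name bcl2fastq, STAR, Picard, HTSeq, RSEM, DESeq2 and the build mm10. Which tool counted the reads and its strand setting are not given in the sources used here. Every value was a whole multiple of 1 step per library within 0.01 read (100% of values), so read counts were recovered. Of 22104 identifiers, 21805 had a symbol.

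Genes at 10 or more in at least 2 libraries (14729) were tested with limma 3.58.1 (R 4.3.3, trended prior) on log2(value + 1), with the 4 groups as 1 factor, 7 residual and 6.35 prior degrees of freedom, and Benjamini-Hochberg adjustment at 0.05. DESeq2 1.42.0, edgeR 4.0.16 (quasi-likelihood) on the recovered reads, other pseudocounts, filters and scaling, fits of only the groups compared and fits without each library were the alternatives. The limma fit was tested on simulated data. Libraries of a group differed by chi-square over degrees of freedom of 4.33 to 20.9, so none was counted as a duplicate. Precision is limited by 2 or 3 libraries per group.

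The 38 genes and the other lists were chosen with earlier results of these data known. Members called in any comparison, or among the 5 highest per kilobase, are given in every library, and the others by range. Of the wider list, up to 6 called genes with the smallest adjusted p in each genotype comparison and up to 3 in each oxygen comparison are named, and of each other list up to 3 called genes. Arntl, Myod1, Myog, Pax7 and Mki67 are always named. The promoters came from RefSeq (GRCm38.p6) and exon lengths from GENCODE M21. Mybpc3, Nppa, Myl7, Ryr2, Ptprc and Adgre1 were not found by symbol in the deposited table and so were not analysed. Exons shared with a gene on the opposite strand also occur for Atp2a1 (Rabep2, mean 247 reads) and Mybph (Adora1, 46.8).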

Additional observations from a re-analysis of the deposited data

How the results depend on the processing

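The genotype result kept its direction in each alternative run: the median difference of the 38 genes was positive in normoxia and in hypoxia, and 33 to 35 of the 38 differences were positive. In normoxia, edgeR called 19 of the 38 higher, DESeq2 24, a minimum of 50 reads 22 and a fit of only the groups compared 17, which lost Myh1, Myl6b and Xirp1 and gained Tnni1. In hypoxia these gave 24, 27, 24 and 24. Pseudocounts of 0.5 or 4, no filter and TMM scaling each gave 19 in normoxia and 24 in hypoxia. Over all tested genes edgeR on the recovered reads called 433 higher and 811 lower in knockout normoxia and 519 higher and 910 lower in knockout hypoxia, 243 and 75 with hypoxia in wild-type cells and 441 and 130 in knockout cells. Without each library in turn the normoxia count ranged from 5 (without WT-N1) to 24, with 11 without KO-N1, and the hypoxia count from 20 to 29. Of genes lower in knockout hypoxia, edgeR called 1, Tcap, against 0, and leaving out a library gave 0 to 1. The wild-type oxygen count of 1 lower gene, Neb, became 0 in a fit of only the groups compared and 0 to 2 without 1 library (2, with Ttn, without WT-N1, and 0 without WT-N2, KO-N1 or WT-H2). In knockout cells the count of lower genes was 0 to 1. The interaction called 0 of the 38 in each alternative. The cause of these changes was not tested. Over all tested genes, fits of only the groups compared lowered 69 to 35 for genes lower in hypoxia in wild-type cells, 506 to 294 for genes higher and 833 to 555 for genes lower in knockout normoxia. Leaving out 1 library gave 229 to 532 higher genes in knockout normoxia (229 without WT-N2, 246 without WT-N1 and 311 without KO-N2) and 439 to 832 lower (439 without WT-N2 and 532 without WT-N1). In knockout hypoxia it gave 318 to 497 higher, against 491 (318 without KO-H2 and 325 without WT-H2), and 596 to 847 lower. With hypoxia in wild-type cells it gave 143 to 247 higher, against 251 (143 without WT-N2 and 152 without WT-N1), and 18 to 72 lower (18 without WT-N2, 33 without WT-N1 and 36 without WT-H2). In knockout cells it gave 304 to 479 higher, against 464 (304 without KO-H3 and 305 without KO-N1), and 64 to 152 lower, against 138 (64 to 75 without KO-N1, KO-N2, KO-H1, KO-H2 or KO-H3). The shares of all tested genes printed beside the set's counts move with these. The interaction count of 1 higher gene was 0 in edgeR, with a pseudocount of 4 or with a minimum of 50 reads, and 4 in DESeq2. No paired analysis was possible because the sample titles carry no number that ties a library of 1 group to one of another. Counts of 28.2 to 75.3 for Tcap and 30.9 to 72.5 for Myoz2 limit the precision of those genes.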

Other observations

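Contractile genes outside striated sarcomeres were read across oxygen levels too. Of 8 smooth muscle markers 0 rose and 1 fell with hypoxia in wild-type cells, and 1 rose and 2 fell in knockout cells. Of 14 non-muscle counterparts 1 rose and 0 fell in wild-type cells, and 0 were called in knockout cells (4 at an unadjusted p under 0.05). Over all tested genes 2.17% were called in wild-type and 4.09% in knockout cells. Acta2, the smooth muscle actin, fell in hypoxia in wild-type cells, -0.19 (adjusted p = 0.0099), and in knockout cells, -0.18 (adjusted p = 0.0057), and read 32293 and 30716 in wild-type normoxia, 28255, 27239.7 and 27105 in wild-type hypoxia, 27478, 27297 and 27572 in knockout normoxia and 24431, 24350.1 and 23912 in knockout hypoxia. Its wild-type call was lost without WT-N1 (adjusted p = 0.132) and in a fit of only the groups compared (adjusted p = 0.105). Tagln, an actin-binding protein of smooth muscle, fell in knockout cells, -0.28 (adjusted p = 0.028), and had -0.13 (adjusted p = 0.485) in wild-type cells. That knockout call was lost without KO-N1, KO-N2, KO-H1 or KO-H2 (adjusted p = 0.0717 to 0.118). Smtn, which encodes the smooth muscle protein smoothelin, rose in knockout cells, 0.30 (adjusted p = 0.0352), and had 0.17 (adjusted p = 0.378) in wild-type cells. The call of Smtn was lost without KO-N1, KO-N2, KO-H1, KO-H2 or KO-H3 (adjusted p = 0.0812 to 0.141) and in a fit of only the groups compared (adjusted p = 0.0578). Tmod3, the broadly expressed cap of actin filament ends, rose in wild-type hypoxia, 0.26 (adjusted p = 0.0104), and had 0.10 (adjusted p = 0.242) in knockout cells. The wild-type call was lost without WT-N1 or WT-N2 (adjusted p = 0.0851 to 0.0855) and in a fit of only the groups compared (adjusted p = 0.0612). Srf, the factor that binds the CArG box, fell in wild-type hypoxia, -0.31 (adjusted p = 0.0189), and had -0.20 (adjusted p = 0.0756) in knockout cells. The call of Srf was lost without WT-N1, WT-H1 or WT-H2 (adjusted p = 0.0631 to 0.211) and in a fit of only the groups compared (adjusted p = 0.0779). Smtn and Srf were named after their values were seen.

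Within troponin T, the slow Tnnt1 held 44.2 to 44.9% in wild-type normoxia, 42.5 to 46.2% in wild-type hypoxia, 45.9 to 46.6% in knockout normoxia and 46.6 to 47.8% in knockout hypoxia, per kilobase, and the fast Tnnt3 44.1 to 49.0% over all libraries. Per kilobase Tnnt3 stood above Tnnt1 in 8 of 11 libraries. That order rests on merged exon lengths of 1583 bases for Tnnt3 and 2204 for Tnnt1. By normalized count Tnnt1 stood above Tnnt3 in each library. The fast Tnni2 held at most 22.9% of Tnni1 and Tnni2, and the fast Tnnc2 18.5 to 24.3% of Tnnc1 and Tnnc2. In the troponin I and troponin C pairs the slow form was the more abundant in all 11 libraries.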
